A study of Rattus norvegicus with 8 samples.

Results

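Translation initiation and elongation factors bring messenger RNA and the initiator transfer RNA to the ribosome and then move the ribosome along the message. The genes described here are the 50 of 26405 Ensembl rat genes whose symbol in the deposited tables begins with Eif followed by a digit from 1 to 6, or with Eef followed by 1 or 2. Each had reads in both compartments measured. They were sorted by name into 11 groups, from the eIF1 family to eEF2 and its kinase. The rule used symbols alone and no measured value. A further 16 rows carry such a name in RefSeq but another symbol or none in the tables, among them Eif1, Eif4a1 and Eef1d, and they were not counted as members.

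RNA was sequenced from rat embryonic hippocampal neurons that had been cultured for 10 to 14 days in microfluidic chambers, where axons extend into a compartment of their own. Axons alone received soluble oligomeric Abeta(1-42), an assembled form of the amyloid peptide that accumulates in Alzheimer disease, or vehicle, for 24 h. The 8 samples form 4 groups of 2: axons given Abeta, axons given vehicle, and the soma and neurites of cultures whose axons had been given Abeta or vehicle. The labels give no strain and no number of embryos or chambers per sample, and they do not state that samples of a group came from separate cultures, so the spread behind each p-value may be technical.

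The files hold 1 table of treatment differences per compartment without naming the treatment in the numerator. Signs are therefore kept as deposited: genes with log2 fold changes above 0 are said to lie on the positive side, those below 0 on the negative side, and the direction of the Abeta effect is not known from any value here. Reads per library were recovered from the deposited mean counts, and libraries are named by side and number. All 50 genes were recovered in axons and 48 in soma, the exceptions being Eef1a1 and Eef2, whose somatic means exceed 1000. Values per library are normalized reads, that is, reads divided by the library's size factor.

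Axonal libraries held 231854 to 425420 recovered reads each, and somatic libraries 262971 to 3656302. Each somatic side had a deep library (size factors 2.97 and 3.74) and a shallow one (0.297 and 0.320). A member had between 0 and 682 reads in an axonal library, and many axonal values rest on few reads. Of 10 matched neuronal markers, 10 had a mean of at least 10 in axons. The compartment also held transcripts of other cell types. Neuronal marker sums overlapped between sides, at 667 and 746 normalized reads (positive side) against 438 and 940 (negative side). The 11 matched astrocyte markers, all with reads and none at 0, summed to 3624 and 4075 normalized reads in axonal libraries of the positive side, against 677 and 1132 in those of the negative side. The 10 matched fibroblast markers, none at 0, summed to 1463 and 2202 against 299 and 285. Of these, 6 astrocyte and 4 fibroblast markers were called on the positive side in axons, and 0 of either list in soma. Over all 1321 genes with an adjusted p in axons, 8.78% were called on that side. Both positive-side libraries stood above both others in 8 of 11 astrocyte and 4 of 10 fibroblast markers, and below them in 1 and 3. Over all genes with recovered reads these orders were seen in 17.1% and 20.0%. Only 6 of the 10 fibroblast markers had an axonal mean of at least 10. Sums of the 10 microglial markers were 82.4 and 32.9 against 134 and 211, and those of the 5 matched endothelial markers 34.8 and 13.3 against 69.3 and 45.9, both higher on the negative side. The 8 oligodendrocyte markers summed to 73.3 and 79.0 against 63.0 and 33.8. In such bulk samples, fewer cells of a type and less RNA per cell cannot be told apart.

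Initiation begins when eIF2, loaded with GTP and the initiator transfer RNA, joins the small ribosomal subunit together with eIF1, eIF1A, eIF5 and the scaffold eIF3. The cap-binding protein eIF4E, the helicase eIF4A and the scaffold eIF4G then recruit the message. Phosphorylation of eIF2 alpha by the Eif2ak kinases blocks its recharging by eIF2B, and eIF4E-binding proteins hold back cap-dependent initiation when mTOR is inactive. Elongation uses eEF1A to deliver transfer RNAs and eEF2 to translocate, and eEF2 kinase inhibits eEF2. Neurons regulate these steps in axons and dendrites as well as in cell bodies, where local protein synthesis serves growth, plasticity and signalling from axon to nucleus.

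Promoter sequence from RefSeq (assembly GRCr8, 250 bases before to 50 after each annotated start) was at hand for 46 of the 50 genes. CACGTG, the E-box letters bound by Myc and related proteins and the same on both strands, stood in the windows of 10 of the 46 genes (21.7%), against 6.42% of 33469 windows of all genes. These 10 were Eef2, Eef2k, Eif1b, Eif3a, Eif3b, Eif4e, Eif4g1, Eif4h, Eif5a and Eif5a2. The windows of the cap-binding complex and of eEF2 are shown because they include genes with the most axonal reads. Capitals mark the motif, and each sequence reads 5′ to 3′ on the gene's strand.
Eif4e, chr2:229740504-229740533, plus strand: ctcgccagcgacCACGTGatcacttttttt
Eif4e, chr2:229740661-229740690, plus strand: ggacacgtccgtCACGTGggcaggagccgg
Eif4g1, chr11:93746404-93746433, minus strand: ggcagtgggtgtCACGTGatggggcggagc
Eif4g1, chr11:93746335-93746364, minus strand: ctctgcgccggtCACGTGgggcgctggctg
Eif4h, chr12:27719512-27719541, plus strand: tggccgccccacCACGTGggccgcagagcg
Eef2, chr7:9189297-9189326, minus strand: cacccgcgccgtCACGTGacgtgcccaacc

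Many messages for translation factors begin with a run of pyrimidines (the terminal oligopyrimidine, or TOP, element), through which mTOR and Larp1 control their translation. Within 15 bases before and 15 after the annotated start, on the gene's strand, CTTTT or CTTTC was found for 9 of 46 genes (19.6%), against 6.79% of windows of all genes. Among them were Eef1a1 and Eef1b2, both known as TOP messages, and Eif2s3. The windows of Eef2 and Eef1g, also known as TOP messages, hold neither run, so the search does not separate TOP messages from others. The window of Eif4g2 holds neither run and is shown for comparison, because this gene had the smallest axonal p-value among the members. Annotated starts are approximate, so the absence of a run says only that these letters are not in this window.
Eef1a1, chr8:88225055-88225084, minus strand: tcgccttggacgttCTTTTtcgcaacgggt
Eef1b2, chr9:72074076-72074105, plus strand: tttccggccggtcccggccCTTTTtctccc
Eif2s3, chrX:62933685-62933714, minus strand: ggcggcagccgagcattttcCTTTTctctc
Eif4g2, chr1:174628238-174628267, minus strand: acgcctcagcgccagcagcgagccggagct
In the full windows, both strands searched, TGACGTCA (the cyclic AMP response element) stood in 1 of 46 genes against 1.83% of all windows, TGATGNAA (the core of ATF4-type elements) in 2 (4.35%) against 3.98%, and the GC box GGGCGG in 32 (69.6%) against 33.1%. These shares are descriptions, base composition was not matched, and members are counted by gene (a few have more than 1 annotated start) where the background is counted by window.

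The first comparison asks which translation factor transcripts of the axonal compartment differed between the treatments. A single gene passed: Eif4g2, which encodes an eIF4G-like scaffold (DAP5) without the eIF4E-binding region and supports cap-independent initiation, lay on the positive side. The other 49 did not pass. All members in the eIF3, eIF2 subunit and eIF5 to eIF6 groups had fold changes above 0, as did 76.6% of all well expressed genes (somatic mean of 100 or more), while eIF2B and the eIF2 kinases were split and eEF2 kinase was below 0. Differences between groups were not tested. At an adjusted p under 0.05 (DESeq2, as deposited), 1 of the 14 members with an adjusted p was called, on the positive side (7.14%), and 0 on the negative side. Over the 1321 genes adjusted, 8.78% were called on the positive side, 14.2% on the negative side and 23.0% on either, so the members' count is near or below the background. Another 36 members had means too low for the authors' adjustment and could not be called.

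**Figure D1:**
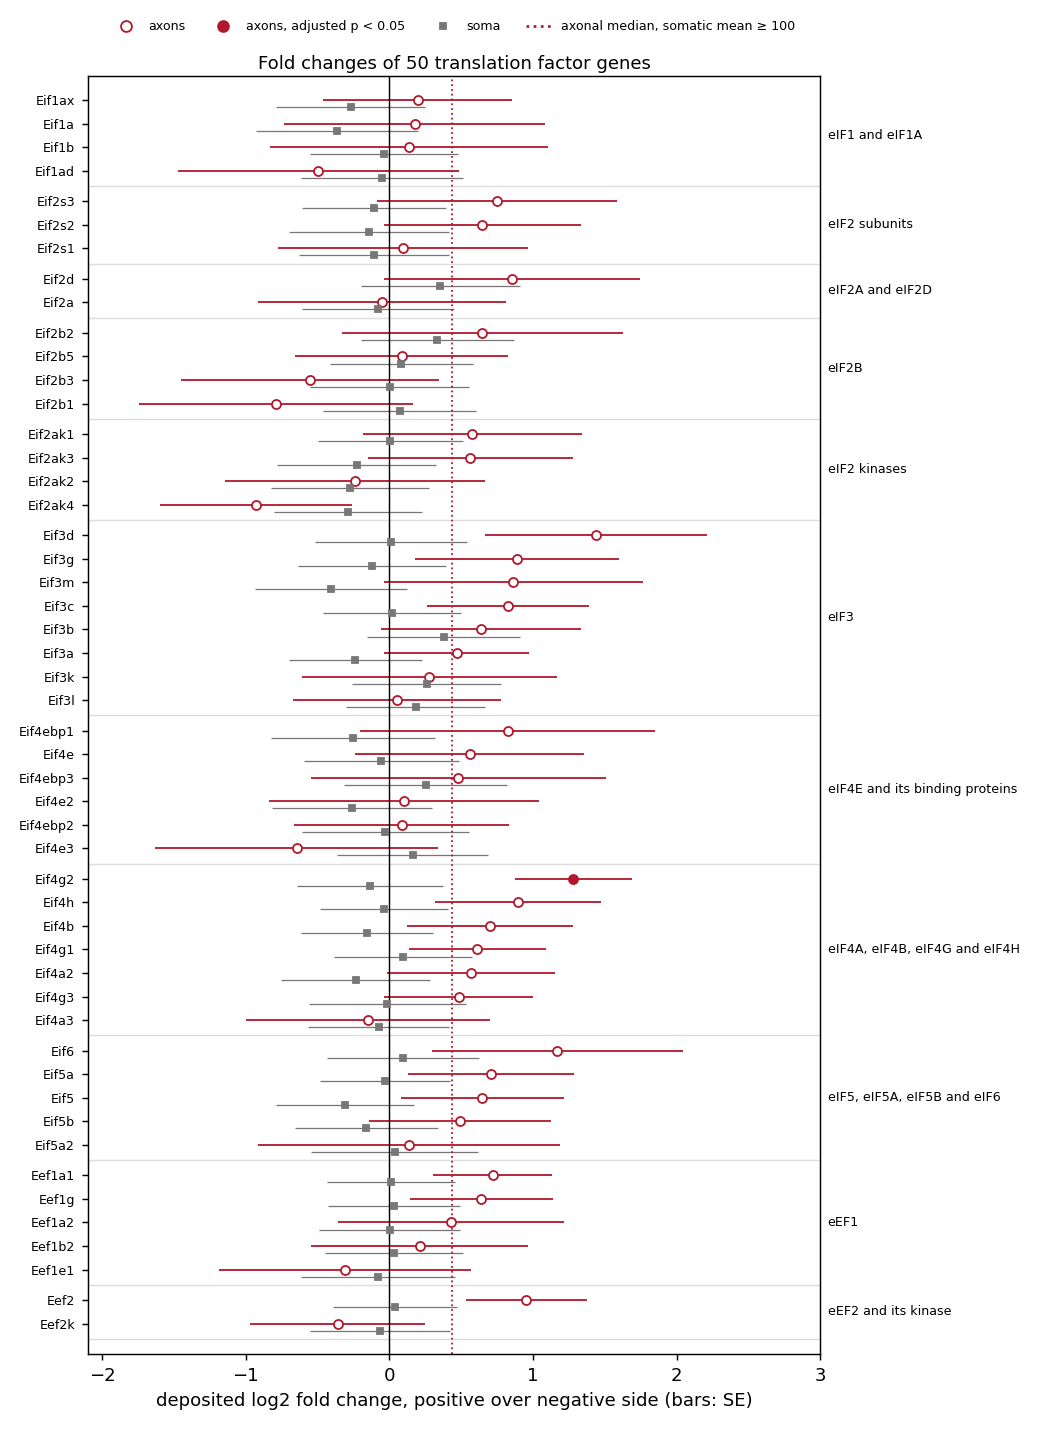
Deposited log2 fold change with its standard error (x axis) for the 50 translation factor genes (rows), by functional group. Circles are axons, filled where the adjusted p is under 0.05, squares are soma, and the dotted line marks 0.44, the axonal median of well expressed genes. Only Eif4g2 is filled, and the somatic squares lie near 0.

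Eif4g2 (ENSRNOG00000017158) had 374 and 412 normalized reads on the positive side, against 139 and 174 on the negative side. Both positive-side libraries stood above both others, with a gap larger than the spread within either side. The authors' deposited table puts the difference at 1.28 on the log2 scale (SE 0.41, adjusted p = 0.0137 by DESeq2), or 2.43-fold, with a 95% interval of 0.48 to 2.08. The call did not hold in any of the other adjustments tried. With p adjusted over all genes with a mean of at least 10 it was 0.0729, over every gene with reads 0.208, and after subtracting the median axonal shift of well expressed genes 0.147.

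That shift bears on every axonal value. Well expressed genes, meaning those whose somatic mean reached 100, were shifted by a median of 0.44 (log2) in axons, and 76.6% of them lay above 0. Of the 23 well expressed members, 22 lay above 0. Of the 42 members whose axonal mean reached 10, 35 did so, against 57.7% of such genes. Over all 50 members the median was 0.49, with 40 above 0 and 10 below, where 43.7% of all genes with reads lay above 0 and their median was -0.13. After subtracting the shift the members' median was 0.049, and 28 of 50 lay above it. Members took 0.805% and 0.955% of the reads recovered on the positive side, and 0.508% and 0.637% of those on the negative side. The shares did not overlap, as with the astrocyte and fibroblast sums and the axonal library depths above. The part of those sums and depths in the members' values was not tested.

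Medians were higher at higher abundance, among members as among all genes. For the 13 members with somatic means from 10 to 50 the axonal median was 0.10, against -0.01 for all genes in that range. From 50 to 100 the median was 0.11 (12 members) against 0.25, from 100 to 200 it was 0.60 (10 members) against 0.40, and from 200 to 500 it was 0.67 (8 members) against 0.47. The 5 members above 500, Eef1a1, Eef1g, Eef2, Eif4a2 and Eif4g2, had a median of 0.72, against 0.63 for the 230 genes with somatic means from 503 to 4972. Members below a somatic mean of 100 thus lay near other genes of their abundance or lower, and the medians of those above it were higher than for all genes. These differences between medians were not tested. Deposited values also lay nearer 0 than ratios of recovered reads, with a members' median of 0.49 against 0.58. The gap was larger for Eif6 (1.17 against 1.48), which had few reads, than for Eif4g2 (1.28 against 1.33). Its part in the order of medians by abundance was not tested.

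Library by library, both positive-side libraries stood above both negative-side ones in 21 of 50 members (42.0%), where the same was true of 17.1% of all genes with recovered reads. The reverse order was seen in 4 members (8.0%), Eif1ad, Eif2b1, Eif2b3 and Eif2ak4, where the background was 20.0%. The remaining 25 members had sides that overlapped. At axonal means of 10 or more the first order was seen in 21 of 42 members against 30.6% of genes, and the reverse in 2 against 18.9%. Among well expressed genes the shares were 17 of 23 members (73.9%) against 47.8%, and 0 against 6.05%. All genes share these 4 libraries, so the order is not independent from gene to gene.

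**Figure D2:**
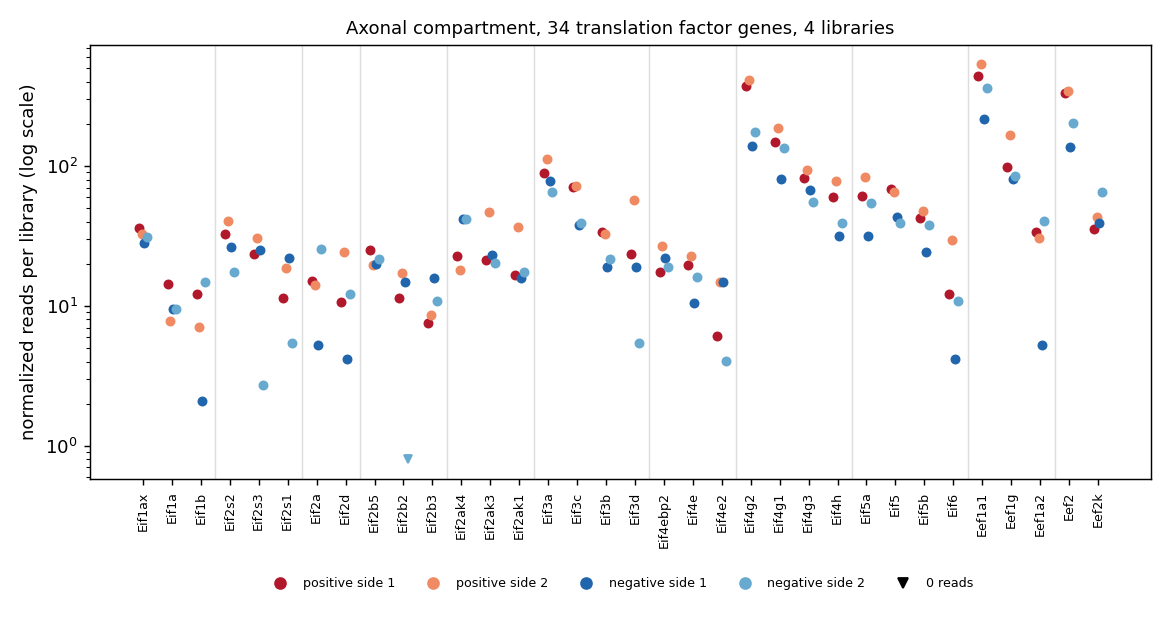
Normalized reads (y axis, log scale) of 34 named translation factor genes (x axis) in the 4 axonal libraries, in red for the positive and blue for the negative side. The red points of Eif4g2, Eef2, Eif4h and Eif5 lie above the blue ones, those of Eif2ak4 lie below, and the triangle marks a library with 0 reads of Eif2b2.

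Among the factors that select the start codon, Eif1ax, which encodes eIF1A, had 36.3 and 32.9 against 28.4 and 31.1 normalized reads. The near-identical Eif1a had 14.4 and 7.83 against 9.45 and 9.45, and because the 2 genes may share reads their values are uncertain. Eif1b, a close relative of eIF1, ranged from 2.10 to 14.9 between the negative-side libraries alone. The 4 genes of this group had deposited log2 fold changes from -0.50 to 0.20 in the authors' deposited table, all below the shift. Eif1 itself, known by name from RefSeq alone and so outside the rule, stood at 1.19 in the authors' deposited table, on a mean of 74.6 normalized counts.

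The eIF2 subunits lay above 0 but rested on few reads. Eif2s1 encodes the alpha subunit, which carries the regulatory phosphorylation site, and it had 11.3 and 18.8 against 22.1 and 5.40 normalized reads, so its sides overlapped. Eif2s2, the beta subunit, had 32.5 and 40.7 against 26.3 and 17.6. Eif2s3, the GTP-binding gamma subunit, had 23.4 and 30.5 against 25.2 and 2.70, the last from 2 reads. Their log2 fold changes in the authors' deposited table were 0.09 (SE 0.87), 0.65 (SE 0.69) and 0.75 (SE 0.84). Without the second negative-side library the recovered log2 ratio of Eif2s3 was 0.10, against 0.95 with it. The alternative factors Eif2a and Eif2d, which can deliver the initiator transfer RNA without eIF2, stood at -0.05 and 0.85 in the authors' deposited table, with overlapping sides.

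The 4 kinases of eIF2 alpha did not move as a group. Eif2ak4 (GCN2, which senses uncharged transfer RNA) had 22.7 and 18.0 against 42.0 and 41.9 normalized reads. It was the kinase with the clearest separation of sides, toward the negative side, and the values within a side were close. The authors' deposited table gives it a log2 fold change of -0.93 (SE 0.67, unadjusted p = 0.163, DESeq2), with a 95% interval of -2.23 to 0.38. Eif2ak3 (PERK, the kinase of endoplasmic reticulum stress) had 21.2 and 47.0 against 23.1 and 20.3, and Eif2ak1 (HRI, known for sensing heme) 16.6 and 36.8 against 15.8 and 17.6. In both, a high value in the second positive-side library stands alone, and without that library the recovered log2 ratios were -0.03 and -0.0024, against 0.65 and 0.68 with it. Eif2ak2 (PKR, activated by double-stranded RNA) had 11.3 and 7.04 against 9.45 and 13.5 normalized reads.

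Of the eIF2B subunits, which recharge eIF2 with GTP, Eif2b5 (the catalytic subunit) had 24.9 and 19.6 against 20.0 and 21.6 normalized reads. Eif2b3 had 7.56 and 8.61 against 15.8 and 10.8, and Eif2b1 6.05 and 4.70 against 14.7 and 8.10, both higher on the negative side. Eif2b2 had 11.3 and 17.2 against 14.7 and 0, where 0 reads allow up to 4.05 normalized reads in that library (3 reads, counting error only). The group median in the authors' deposited table was -0.23, but Eif2b4, named by RefSeq alone, stood at 0.43, and with it the median of the 5 subunits was 0.09. The 4 members had mean normalized counts of 8.39 to 21.5, and each interval includes 0 and the shift.

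eIF3, the large scaffold that binds the small subunit, had 8 subunits among the members. All 8 lay above 0 in the authors' deposited table, from 0.05 for Eif3l to 1.44 for Eif3d, with a median of 0.73. In 6 of the 8 the positive side stood above the negative side without overlap. The same was true of 30.6% of genes with an axonal mean of at least 10. It was true of 47.8% of well expressed genes, to which Eif3a, Eif3b, Eif3c, Eif3d and Eif3m belong. With the 4 subunits named by RefSeq alone, 11 of 12 lay above 0, the exception being Eif3h at -0.12 in the authors' deposited table. Eif3c, a core subunit, had 71.1 and 72.0 against 37.8 and 39.2 normalized reads, with very close values within each side. The authors' deposited table puts Eif3c at 0.83 (log2 fold change, SE 0.56, adjusted p = 0.327, DESeq2). Eif3a, the largest subunit, had 89.2 and 112.7 against 77.7 and 64.8, and Eif3b 34.01 and 32.9 against 18.9 and 21.6. Eif3d, a subunit that can itself bind the cap, had 23.4 and 57.1 against 18.9 and 5.40 normalized reads, the last from 4 reads. Its deposited log2 fold change of 1.44 (SE 0.77, unadjusted p = 0.0636, DESeq2), the highest among the members in the authors' deposited table, is not past the threshold and comes with a 95% interval of -0.08 to 2.95. Its recovered log2 ratio, 1.73 over all libraries, was 0.95 without the second positive-side library, 1.09 without the second negative-side one and 2.90 without the first negative-side one.

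The cap-binding group was low in reads and mixed. Eif4e had 19.7 and 22.7 against 10.5 and 16.2 normalized reads, without overlap, and a log2 fold change of 0.56 (SE 0.80) in the authors' deposited table. Eif4ebp2, the main eIF4E-binding protein of brain, had 17.4 and 26.6 against 22.1 and 18.9. Eif4ebp1 had 1.51 and 18.0 against 6.30 and 1.35, so that 1 library holds most of its reads. Eif4e2, a homologue linked to repression, had 6.05 and 14.9 against 14.7 and 4.05 normalized reads, with more spread within sides than between them.

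The helicase and scaffold group held the most axonal reads among initiation factors, without correction for transcript length. Eif4g1, the main eIF4G scaffold, had 148 and 187 against 80.9 and 134 normalized reads, and Eif4g3 82.4 and 93.1 against 67.2 and 55.4. Eif4h, a cofactor of the eIF4A helicase, had 60.5 and 78.3 against 31.5 and 39.2. The sides of these 3 genes did not overlap, the positive one being higher, as in 47.8% of well expressed genes. Their log2 fold changes in the authors' deposited table were 0.61 (SE 0.48), 0.48 (SE 0.52) and 0.90 (SE 0.58), with adjusted p from 0.299 to 0.562 (DESeq2). Eif4a2, the helicase form prominent in neurons, had 54.4 and 86.1 against 33.6 and 58.1 normalized reads, which overlapped. Eif4a3, part of the exon junction complex, was the member of this group below 0, at -0.15 (SE 0.85) in the authors' deposited table.

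Later initiation factors also lay above 0. Eif5, which triggers GTP hydrolysis by eIF2, had 68.8 and 65.0 against 43.1 and 39.2 normalized reads. Eif5a, the hypusine-carrying factor that helps ribosomes through difficult peptide bonds, had 61.2 and 83.7 against 31.5 and 54.0, and Eif5b, the subunit-joining GTPase, 42.3 and 47.7 against 24.2 and 37.8. Eif6, which keeps free large subunits apart from small ones, had 12.1 and 29.7 against 4.20 and 10.8. In these 4 genes the positive side stood above the negative side, as in 30.6% of genes with an axonal mean of at least 10. Among well expressed genes, to which Eif5 and Eif5a belong, the share was 47.8%. None of the 4 passed, with log2 fold changes from 0.49 to 1.17 in the authors' deposited table.

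Elongation factors included Eef1a1, the member with the most axonal reads, again without correction for length. Eef1a1 had 441 and 534 against 217 and 363 normalized reads, and the authors' deposited table puts its log2 fold change at 0.72 (SE 0.42, adjusted p = 0.235, DESeq2). Copies such as Eef1a1l1 in RefSeq may share reads with it, so its values are uncertain. Eef1a2, the form that replaces Eef1a1 in mature neurons and muscle, had 34.01 and 30.5 against 5.25 and 40.5, with both extremes on the negative side. Eef1g, the gamma subunit of the exchange factor, had 99.0 and 167 against 80.9 and 85.1. Eef2 had 333 and 343 against 137 and 204 normalized reads. At 0.95 in the authors' deposited table (log2 fold change, SE 0.42, adjusted p = 0.0885 by DESeq2, unadjusted p = 0.0239), it was the other member with an unadjusted p under 0.05, and over all genes with reads 4.45% had one. Its kinase Eef2k had 35.5 and 43.0 against 38.9 and 64.8, which overlapped, and -0.36 (SE 0.61) in the authors' deposited table. Enzyme and target thus lay on different sides of 0, but the sign of Eef2k rested on 1 library. Its recovered log2 ratio was 0.015 without the second negative-side library, against -0.40 with it. The difference between Eef2k and Eef2 was not tested.

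Genes around these factors were read from 6 lists. Of 21 rows of the integrated stress response, which eIF2 alpha phosphorylation sets off through Atf4, only 3 had an adjusted p. Of these 3, 1 was called on the positive side and 0 on the negative side, where 8.78% and 14.2% of all adjusted genes were. The called gene was Slc3a2, an amino acid transporter subunit, with 85.4 and 167 against 42.0 and 31.1 normalized reads and 1.65 (SE 0.55, adjusted p = 0.0169, DESeq2) in the authors' deposited table. Its adjusted p was 0.0882 over genes with a mean of at least 10, 0.250 over every gene with reads and 0.118 after centring, so this call was lost too. The list had a median of 0.80 with 19 of 21 rows above 0. Such values were seen in 57.7% of genes with an axonal mean of at least 10 and in 76.6% of well expressed genes. Neither filter was applied to the list. Of 22 genes of mTOR signalling to translation, 0 were called (3 with an adjusted p, median 0.55). The smallest p-values there belonged to the kinase Rps6ka3, at 2.25 (SE 0.91, unadjusted p = 0.0132), and the mTOR inhibitor Ddit4, at 1.60 (SE 0.75, unadjusted p = 0.0321), in the authors' deposited table (DESeq2).

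Termination and recycling factors (12 rows, median 0.27), regulators that bind the poly(A) tail or the message (23 rows, median 0.38) and aminoacyl-tRNA synthetases (21 rows, median 0.59) each had 0 called genes by DESeq2, with 0, 3 and 4 rows that could be called. Gspt1, a release factor, had 29.5 and 25.0 against 10.5 and 12.2 normalized reads, and Gtpbp2, a ribosome rescue factor, 15.1 and 5.48 against 25.2 and 18.9. Ddx3x, a helicase that aids initiation, stood at 1.21 (SE 0.52, adjusted p = 0.0758, DESeq2) in the authors' deposited table, and Cpeb1, which binds 3′ ends of dormant messages, at -1.49 (SE 0.87) on a mean of 12.8. Yars and Lars, the tyrosine and leucine synthetases, stood at 1.34 (SE 0.70) and 1.08 (SE 0.64) in the authors' deposited table. Of 11 translation factors known as TOP messages, 9 were matched, Eef1d and Eif3f through RefSeq. All 9 lay above 0 with a median of 0.64, where 76.6% of well expressed genes lay above 0 with a median of 0.44. Genes that carry another symbol, such as Eif3e at 0.51 and Eif3h at -0.12, were not matched. Of the 5 that could be called, 0 were.

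The second comparison asks whether the same genes differed in soma when axons alone were treated. No member was called: 0 of 50 passed the authors' adjusted p under 0.05 (DESeq2) and 0 had an unadjusted p under 0.05. The background over 18995 genes was 0.0% called and 0.0105% with an unadjusted p under 0.05 (2 genes). The somatic test thus singled out almost no gene, and members' SEs ran from 0.43 (Eef2) to 0.58 (Eif5a2). The lack of calls therefore does not show that members were unchanged in soma. The median log2 fold change was -0.04, with 21 above 0 and 29 below. The largest values in the authors' deposited table were 0.38 (SE 0.53) for Eif3b and -0.41 (SE 0.53) for Eif3m. Eif4g2 stood at -0.14 (SE 0.51) and Eif2ak4 at -0.29 (SE 0.52) in the authors' deposited table. Both positive-side libraries were above both others in 4 of 48 recovered members (8.33%), against 7.55% of genes, and below them in 2 (4.17%), against 7.85%. Those 4 were Eif2b2, Eif2d, Eif3k and Eif4e3, and those 2 were Eif2ak4 and Eif4ebp1.

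In soma the members, like well expressed genes at large, differed far more between libraries of unlike depth than between sides. Eif4ebp2 had 13.5 and 101 normalized reads in the deep and shallow libraries of the positive side, and 14.96 and 103 in those of the negative side. It was thus 7.50-fold and 6.90-fold higher in the shallow libraries, while the 2 deep libraries differed little from each other, as did the 2 shallow ones. Eif4g3 had 80.2 and 293 (positive side, deep and shallow), against 86.8 and 291 (negative side). Eif4g2 followed the same order, with 509 and 1337 against 688 and 1401 normalized reads, and with a mean near 1000 its recovered reads are less certain.

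Other members had the opposite order. Eif2s2 had 255 and 60.6 normalized reads in the deep and shallow libraries of the positive side and 297 and 71.9 in those of the negative side, 4.21-fold and 4.13-fold higher in the deep ones. In the same order, Eif1a had 109 and 26.9, then 171 and 34.4, and Eif4e had 244 and 77.4, then 257 and 84.5. Eif4h, with 306 and 323, then 309 and 341, and Eef1b2, with 95.3 and 90.9, then 93.5 and 87.6, scarcely differed between depths.

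Across the 48 recovered members, 30 were higher in the deep library on both sides, 10 were higher in the shallow library on both sides, and 8 were mixed. For the 21 recovered and well expressed members, the log2 ratio of shallow to deep varied over genes with an SD of 1.11 (positive side) and 1.07 (negative side). Between sides the SD was 0.23 in the deep pair and 0.28 in the shallow pair. Over all 2564 such genes the SDs were 1.00 and 1.08 between depths, and 0.25 and 0.37 between sides. The spread between depths is thus not particular to the members. At least a 2-fold excess in the deep library on both sides was seen in 6 of these 21 (28.6%), against 10.5% of all such genes, and in the shallow library in 3 (14.3%), against 10.3%. A difference of at least 1.5-fold to the same side in both pairs was seen in 0 of the 21, against 0.234% of such genes. The shallow over deep ratios of the 2 sides had a Pearson r of 0.962 over these 21 genes, all measured in the same 4 libraries. No label gives a batch or a depth, and these classes of libraries come from the data. Fibroblast marker sums, for comparison, were 516 and 505 in the deep and 1522 and 1636 in the shallow libraries. Recovered astrocyte markers summed to 2909 and 2886 in the deep and 3701 and 3535 in the shallow ones. Microglial sums had the opposite order, at 1382 and 1061, then 865 and 738. Recovered neuronal markers differed little, at 4159 and 4568, then 4216 and 4004. The part of these cell types in the members' values was not tested.

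**Figure D3:**
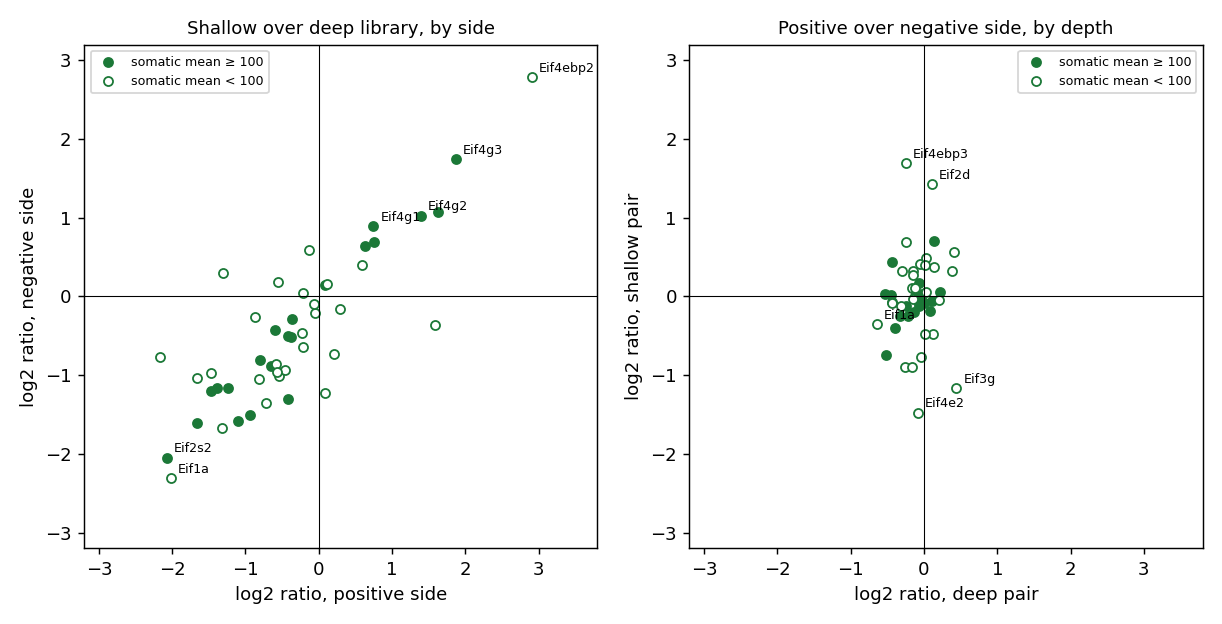
Left, log2 ratio of the shallow to the deep somatic library on the positive side (x axis) and negative side (y axis). Right, log2 ratio of the positive to the negative side in the deep pair (x axis) and shallow pair (y axis). Points are 48 translation factor genes, filled for a somatic mean of at least 100. The left panel spreads along the diagonal from Eif2s2 and Eif1a to Eif4ebp2, while the filled points of the right panel lie close to 0.

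The third comparison asks whether axonal and somatic differences were themselves different. No member passed: 0 of 50 had an adjusted p under 0.05 in the test of the difference (normal test on the 2 deposited values, Benjamini-Hochberg over 18406 genes), against 6 of all genes (0.0326%), and 1 member had an unadjusted p under 0.05, against 2.6% of genes. That member was Eif4g2, whose axonal value exceeded its somatic one by 1.42 (log2, SE 0.65, 95% interval 0.14 to 2.69, adjusted p = 1.00). For Eif2ak4 the difference was -0.64 (SE 0.84), with an interval of -2.29 to 1.01, and for Eif3c it was 0.81 (SE 0.74). Differences were above 0 in 41 of 50 members, against 48.6% of all genes. The members' median difference was 0.50, close to the 0.48 of all well expressed genes. The somatic SEs enter this test as well, so the lack of calls does not show that axonal and somatic differences were alike.

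Levels in the compartments were compared as a description, since the tables were normalized separately. All 50 members had a lower mean normalized count in the axonal than in the somatic table. Their median axonal mean was 23.0% of the somatic one, where the median was 27.7% for genes whose somatic mean reached 10 and 19.7% for those that reached 100. The eIF2 kinases stood at a median of 44.7%, the eIF2 subunits at 12.7% and the eIF1 family at 13.5%. Within the kinases, Eif2ak4 had means of 31.1 and 49.8 (62.5%) and Eif2ak3 27.9 and 46.8 (59.6%). Eif2ak1 had 21.7 and 64.7 (33.5%) and Eif2ak2 10.3 and 49.6 (20.8%). All genes with a somatic mean from 10 to 50 had a median of 34.5%, those from 50 to 100 25.5% and those from 100 to 200 21.5%. Somatic means ran from 46.8 to 64.7 for the kinases and from 125 to 171 for the eIF2 subunits, so these groups differ in abundance too.

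**Figure D4:**
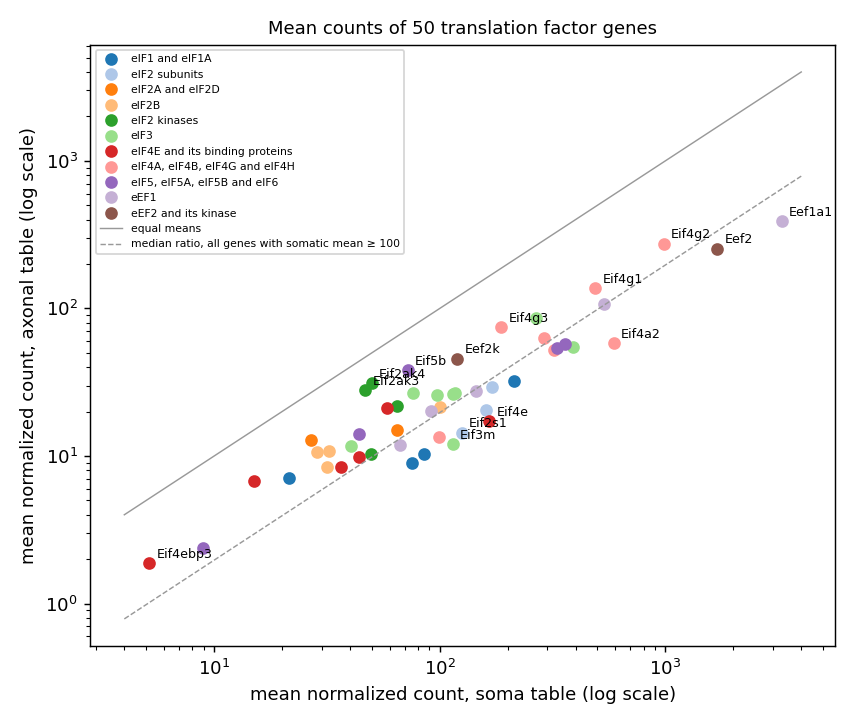
Mean normalized count in the axonal table (y axis) against the somatic table (x axis), both on log scales, for 50 translation factor genes coloured by group. All points lie below the solid line of equal means, Eif2ak3, Eif2ak4 and Eif5b lie nearest to it, and Eif4a2 lies farthest below the dashed line, which marks the median ratio of well expressed genes.

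Levels of initiation factors differed widely within a group in this respect. Among scaffolds, Eif4g3 had axonal and somatic means of 74.5 and 187.7 (39.7%), Eif4g1 137 and 489 (28.1%) and Eif4g2 275 and 984 (27.9%). The lowest share belonged to the helicase Eif4a2, with 58.0 and 589.7 (9.84%), followed by Eif4e with 17.3 and 166 (10.4%) and Eif3m with 12.1 and 114 (10.6%). Eif5b had 38.0 and 72.1 (52.7%). Of the elongation genes, Eef2k had 45.6 and 119.7 (38.1%), Eef2 254 and 1699 (14.96%) and Eef1a1 389 and 3276 (11.9%), so the kinase stood at a higher share than its target. The spread of these shares over samples is not known, since the libraries of the tables are not paired.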

How the data were processed

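The data are 2 tables of the authors' comparisons, 1 per compartment, each with 26405 genes. The submitters' processing notes name TopHat2, SAMtools, Trim Galore and DESeq2, without versions or roles. Genome build and read counter: not given in the sources used here. Each table gives a mean normalized count over 4 libraries (a signal the authors made, per the file headers), a log2 fold change with SE, a Wald score and a p-value with its adjusted value, all deposited. Adjusted p-values are present for 1321 axonal genes, all with a mean of at least 44.8.

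Reads per library were solved from the 15-digit means as sums of 4 whole counts times a fixed unit (Python 3.11.15, NumPy 2.4.6, numba 0.67.0). For means under 100, 100% had exactly 1 solution and 0% of shifted decoys had any; from 500 to 1000, 7.69% (axons) and 5.48% (soma) of decoys had one. On simulated means, 1321 of 1321 and 994 of 994 were recovered. Libraries cannot be matched to sample titles and enter no test. The difference test, run on simulated data first, adds the squared SEs.

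Named members were those called, plus in each group the 3 of highest axonal mean and the 2 of smallest axonal p among means of at least 10 (34 genes); others named were chosen after their values were seen. From other lists, called genes or the 2 of smallest p were named. Members and lists were chosen with earlier results of these data known. Alternatives changed the genes adjusted over, the centring, the low-count filter and the libraries.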

Additional observations from a re-analysis of the deposited data

How the results depend on the processing

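The count of members called in axons was 1 as deposited and 0 with p adjusted over genes with a mean of at least 10, 0 over every gene with reads and 0 after centring on well expressed genes; the adjusted p of Eif4g2 ranged from 0.0729 to 0.208 over these. The first of these adjusts over more genes, and the last subtracts 0.44. Calls in soma and for the difference between compartments were 0 in each setting tried. The median axonal log2 fold change of members, 0.49, became 0.049 after centring, and 0.57 and 0.70 for members with a mean of at least 10 and 50. The median recovered log2 ratio in axons was 0.58, and ranged from 0.36 to 0.68 when each library was left out. In soma it was -0.05, and ranged from -0.32 to 0.31 when each library was left out, where depths become unbalanced; it was -0.10 in the deep pair and -0.04 in the shallow pair. Of 34 named members, 12 changed sign without 1 axonal library, and of all 50, 25 stayed above 0 and 5 below 0 whichever library was left out. The counts 25 and 5 leave out members without a defined ratio in some case. Eif4ebp3, with 0 reads in the second negative-side library, is such a member. No paired analysis was possible because the tables hold no column per sample and the recovered libraries carry no replicate number. The SEs of the members' axonal log2 fold changes ran from 0.41 to 1.05 with 2 libraries on each side. The adjustments of Slc3a2, the other backgrounds for libraries that do not overlap and the comparison of deep with shallow pairs were chosen after seeing the data.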
